A study of Rattus norvegicus with 10 samples.

Results

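The secretin-class peptide receptors are a family of G protein-coupled receptors for mid-sized peptide hormones, and 10 of their genes were followed in the supraoptic nucleus of rats deprived of water. The genes were Sctr, Glp1r, Glp2r, Gipr, Vipr1, Vipr2, Adcyap1r1, Pth1r, Pth2r and Calcrl, found by gene name among 32402 listed genes. Of these 10, 9 were found, 8 passed the filter on low counts that left 15311 genes tested, and Vipr1 was not analysed here. The family was chosen by a measured value, the rise of Sctr and Glp1r counts after dehydration in these same libraries. The differences of those 2 genes are therefore given as a description with no p-value, and that they lie past the threshold supports nothing, and the differences of the other receptors were also known beforehand.

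The samples were supraoptic nuclei of Wistar Han rats, taken as frozen punches from both sides of the brain. In the dehydrated group drinking water had been removed for 72 h (5 libraries), and the euhydrated group drank freely (5 libraries). No gene was altered in either group, and the labels give neither sex nor age. Nothing in the labels ties a library to its own animal. The p-values therefore cover only the variation among these libraries, some of which may be technical. Whole cages were allotted to a water regime, and which libraries share a cage is not given in the labels.

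The libraries held 24268398 to 28491926 read counts. Levels are given in CPM, the usual count scaled to library size, with TMM factors applied. "edgeR adjusted p" is the p-value of edgeR's quasi-likelihood test after Benjamini-Hochberg adjustment across every gene tested, and its threshold was 0.05. The defining peptides of the nucleus were present at high level, with Avp at 8475 CPM in dehydrated and 6153 CPM in euhydrated libraries and Oxt at 3394 CPM in dehydrated and 2993 CPM in euhydrated libraries. Neither passed the threshold by edgeR (edgeR adjusted p = 0.0800 for Avp and 0.254 for Oxt). DESeq2 called Avp (adjusted p = 0.0144) but not Oxt (0.256), and limma-voom called neither (0.0830 for Avp and 0.291 for Oxt). Of 6 magnocellular marker genes 3 rose by edgeR, Pdyn, Scg2 and Caprin2, where 7.79% of all genes rose. DESeq2 called 4 of the 6 and limma-voom 3. The 6 summed to 12459 to 16541 CPM in dehydrated against 8368 to 11720 CPM in euhydrated libraries. In punched tissue, a change in the number of cells of a type and a change in RNA per cell cannot be told apart.

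Receptors of this class bind the carboxy-terminal part of their peptide with a large extracellular domain, while the amino-terminal part of the peptide reaches into the membrane bundle and sets the receptor in its active state. Most of them couple to the stimulatory G protein Gs, which raises cyclic AMP through adenylyl cyclases and so activates protein kinase A. In rodents, secretin and glucagon-like peptide signals have been tied to vasopressin release, drinking and feeding, and PACAP acts on magnocellular neurones. Calcrl differs from the rest in needing a single-pass partner protein, a RAMP, to reach the cell surface and to recognise its ligand.

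The stretches upstream of Sctr and Glp1r are shown because these are the 2 receptor genes whose transcripts rose, and that of Adcyap1r1 because it is the receptor with the largest count and its level hardly moved. Each is the 250 bases before the annotated start, 5′ to 3′ on the strand of the gene, from RefSeq on the build GRCr8, at chr13:33680377-33680626 (Sctr, + strand), chr20:8973143-8973392 (Glp1r, + strand) and chr4:85923921-85924170 (Adcyap1r1, + strand). Capitals mark GC boxes (GGGCGG) and CCAAT boxes (CCAAT) on either strand.
Sctr: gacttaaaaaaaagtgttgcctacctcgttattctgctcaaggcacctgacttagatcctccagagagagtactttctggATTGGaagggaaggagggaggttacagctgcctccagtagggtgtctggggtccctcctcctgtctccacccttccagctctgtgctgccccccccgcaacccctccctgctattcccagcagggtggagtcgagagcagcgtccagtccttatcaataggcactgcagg
Glp1r: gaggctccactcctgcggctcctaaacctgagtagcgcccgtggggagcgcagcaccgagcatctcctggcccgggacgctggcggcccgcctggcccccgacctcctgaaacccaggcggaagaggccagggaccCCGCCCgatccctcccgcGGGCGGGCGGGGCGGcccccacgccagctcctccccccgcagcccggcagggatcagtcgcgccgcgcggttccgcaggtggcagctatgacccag
Adcyap1r1: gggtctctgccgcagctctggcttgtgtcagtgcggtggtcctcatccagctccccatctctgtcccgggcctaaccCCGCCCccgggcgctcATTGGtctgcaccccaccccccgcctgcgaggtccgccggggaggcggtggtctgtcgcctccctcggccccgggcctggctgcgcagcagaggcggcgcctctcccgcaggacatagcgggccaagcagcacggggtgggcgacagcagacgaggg

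The upstream stretches of the 2 genes that rose had little in common. That of Glp1r held 27 CG dinucleotides and 4 GC boxes, of which the run GGGCGGGCGGGGCGG holds 3, and its GC content was 75.6%. That of Sctr held 4 CG dinucleotides, no GC box and 1 CCAAT box, 170 bases before the start, and its GC content was 56%. Across 33469 promoters of this length the median was 5 CG dinucleotides, 30.5% held a GC box and 34% a CCAAT box. Adcyap1r1 had 22 CG dinucleotides and a GC box, and like Sctr 1 CCAAT box, which Glp1r lacks. The cyclic AMP response element (TGACGTCA), its core (TGACG, which lies within it), the AP-1 element (TGANTCA) and the TATA box (TATAAA), searched on both strands, were in none of these 3 stretches. These letters stood in 1.59%, 18.2%, 6.34% and 12.9% of all promoters, in that order. Of the 10 receptor genes 9 had an upstream stretch in the table, Gipr being the exception. Of the 9, only Vipr1 and Pth1r held the core TGACG, 65 and 33 bases before the start. Pth1r had the largest number of GC boxes among them, 7, and Calcrl had the fewest CG dinucleotides, 1.

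Sctr (ENSRNOG00000049766), which encodes the secretin receptor, had few reads in every library and was higher in each dehydrated library than in any euhydrated one. Its level was 3.42, 3.43, 3.55, 4.0 and 3.56 CPM in dehydrated libraries 1 to 5, against 1.73, 1.18, 0.558, 1.41 and 1.38 CPM in euhydrated libraries 1 to 5. The lowest dehydrated value was about as far above the highest euhydrated one as that one lay above 0. In raw counts the dehydrated libraries had 88 to 96 reads each and the euhydrated libraries 16 to 48. Summed over each group this was 462 reads in dehydrated (95% exact Poisson interval 421 to 506) and 172 reads in euhydrated libraries (147 to 200), intervals that cover counting error only. The fold change was 2.87, a log2 fold change of 1.52 ± 0.20 (SE, n = 5 per group; 95% interval 1.09 to 1.95). The euhydrated libraries differed widely among themselves, and without euhydrated 3, the lowest, the log2 fold change was 1.33 ± 0.15. It was 1.67 without euhydrated 1, the highest of that group.

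Glp1r (ENSRNOG00000001152), the receptor of glucagon-like peptide-1, was counted from 491 to 656 reads in dehydrated and 264 to 352 reads in euhydrated libraries. It stood at 19.3, 25.5, 22.2, 22.8 and 19.6 CPM in dehydrated libraries 1 to 5, against 12.1, 9.84, 12.3, 10.0 and 11.8 CPM in euhydrated libraries 1 to 5. The groups did not overlap, and the gap between them was wider than the whole euhydrated range. The means were 21.9 ± 2.55 CPM in dehydrated and 11.2 ± 1.17 CPM in euhydrated libraries (SD, n = 5 each), a fold change of 1.95 with a 95% interval of 1.72 to 2.22. The log2 fold change of 0.96 ± 0.09 (SE) ranged from 0.90 to 1.01 when each library was left out in turn.

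By size of the log2 fold change, Sctr ranked 40 and Glp1r 94 among the 15311 genes tested, counted from the largest rise. The authors' deposited table gives 1.52 ± 0.21 for Sctr and 0.96 ± 0.10 for Glp1r (SE), from the same libraries. Both receptors passed edgeR's threshold, as did 12.7% of all genes, 7.79% of them upward (1192 genes) and 4.9% downward (750 genes). Scaling to library totals gave 904 higher and 1173 lower genes. Both are also among the 10.9% of genes whose groups did not overlap, 6.9% with the dehydrated libraries higher and 3.97% with them lower. As these differences led to the choice of the family, nothing is read from that count. The intervals and left-out ranges of Sctr and Glp1r do not allow for that choice, and their fold changes may be too large for it.

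**Figure D1:**
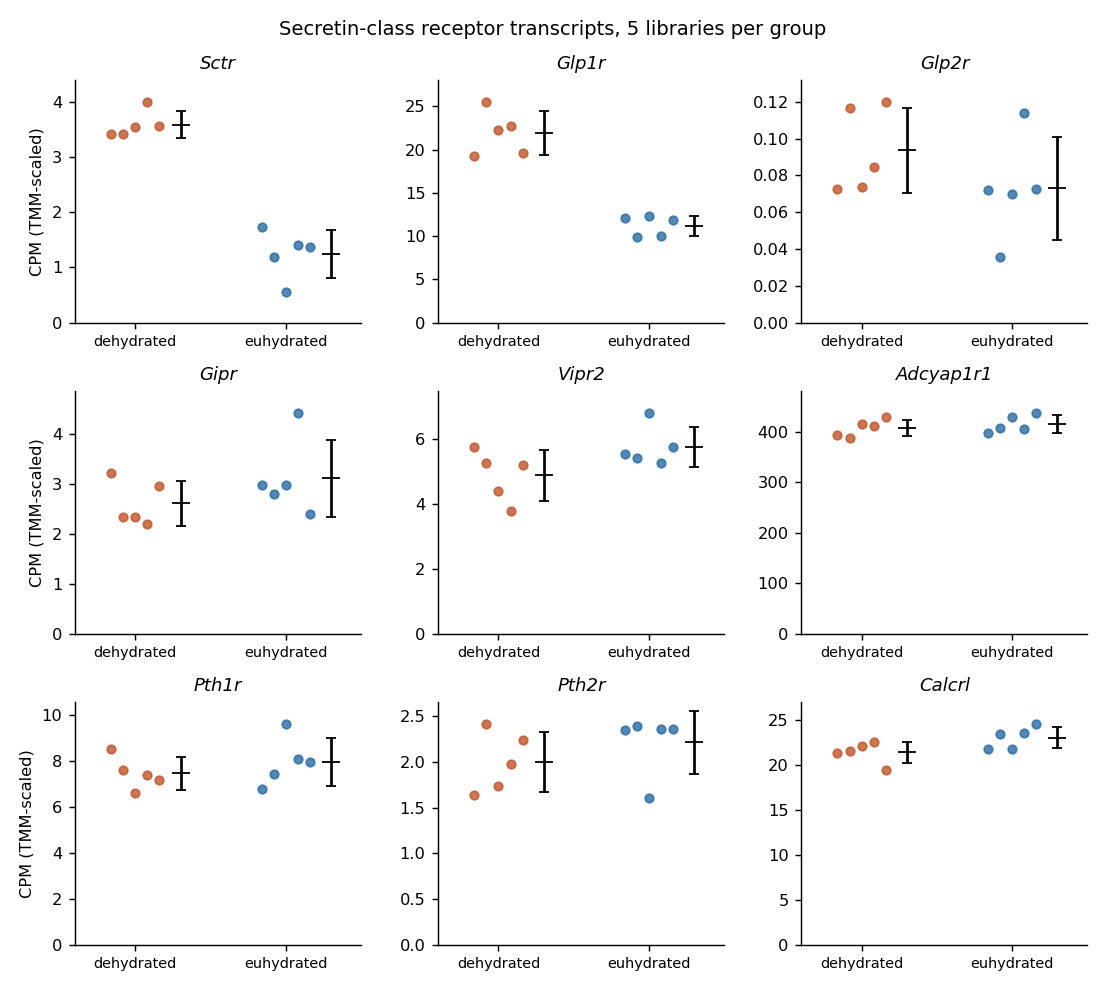
Level of each of the 9 receptor transcripts found, in CPM, with 1 point per library (dehydrated left, euhydrated right) and the mean ± SD beside the points; every axis starts at 0. Sctr at 3.42 to 4.0 CPM and Glp1r at 19.3 to 25.5 CPM in dehydrated libraries lie above all euhydrated libraries, and the points of the other 7 receptors overlap between the groups.

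Of the other glucagon-family receptors only Gipr was tested, and it did not share this pattern. Gipr (ENSRNOG00000015860), the receptor of the gut hormone GIP, stood at 3.20, 2.34, 2.33, 2.19 and 2.96 CPM in dehydrated libraries, against 2.96, 2.79, 2.96, 4.41 and 2.39 CPM in euhydrated libraries. The groups overlapped, and the euhydrated mean leant on library 4. Its log2 fold change was -0.25 ± 0.17 (SE, edgeR adjusted p = 0.384) and -0.09 without euhydrated 4. Glp2r (ENSRNOG00000003683), the receptor of glucagon-like peptide-2, had 2 or 3 reads in each dehydrated and 1 to 3 in each euhydrated library, too few to be tested. Summed, these were 12 reads in dehydrated and 10 reads in euhydrated libraries, and a difference would not have been detectable at this depth. Gcgr, the glucagon receptor, which is not among the 10, had 45 reads in the dehydrated and 45 in the euhydrated libraries and was not tested either.

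Of the PACAP and VIP receptors, Adcyap1r1 (ENSRNOG00000012098), which binds PACAP with far higher affinity than VIP, was counted most deeply, with 9780 to 11233 reads in dehydrated and 10634 to 12301 in euhydrated libraries. It stood at 393, 388, 415, 412 and 429 CPM in dehydrated libraries, against 397, 406, 429, 405 and 437 CPM in euhydrated libraries. The ranges nearly coincided. Its log2 fold change was -0.03 ± 0.04 (SE, edgeR adjusted p = 0.701), and the 95% interval of the fold change, 0.932 to 1.04, excludes changes as large as those of Sctr or Glp1r. Vipr2 (ENSRNOG00000004317), which binds VIP and PACAP about equally and marks the neighbouring suprachiasmatic nucleus, stood at 5.75, 5.26, 4.40, 3.79 and 5.2 CPM in dehydrated libraries. In euhydrated libraries it stood at 5.53, 5.40, 6.80, 5.25 and 5.76 CPM. Dehydrated 3, 4 and 5 lay below every euhydrated library, dehydrated 1 and 2 lay among them, and the log2 fold change was -0.23 ± 0.12 (SE, edgeR adjusted p = 0.222). The 6 matched markers of the suprachiasmatic nucleus summed to 15.8 to 17.2 CPM in dehydrated and 15.8 to 17.4 CPM in euhydrated libraries. Of the 5 tested, 1 rose, Prok2, where 7.79% of all genes rose; it was at 1.36 CPM in dehydrated and 0.281 CPM in euhydrated libraries (edgeR adjusted p = 2.27e-05), and none was at 0 in all libraries. Their part in the level of Vipr2 was not tested.

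The parathyroid hormone receptors overlapped between the groups as well. Pth1r (ENSRNOG00000020948), shared by parathyroid hormone and its related protein, stood at 8.52, 7.59, 6.58, 7.38 and 7.16 CPM in dehydrated libraries, against 6.76, 7.44, 9.59, 8.07 and 7.93 CPM in euhydrated libraries. The highest value was that of euhydrated 3 and the lowest that of dehydrated 3 (log2 fold change -0.10 ± 0.10, SE; edgeR adjusted p = 0.595). Pth2r (ENSRNOG00000015259), whose hypothalamic ligand is the peptide TIP39, stood at 1.64, 2.41, 1.74, 1.98 and 2.24 CPM in dehydrated libraries and 2.35, 2.4, 1.60, 2.36 and 2.36 CPM in euhydrated libraries. In euhydrated libraries 4 values lay within 0.05 CPM of each other and the fifth, that of library 3, was lower. The log2 fold change was -0.15 ± 0.16 (SE, edgeR adjusted p = 0.623).

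Calcrl (ENSRNOG00000054695), the shared subunit of the CGRP and adrenomedullin receptors, stood at 21.4, 21.6, 22.1, 22.6 and 19.5 CPM in dehydrated libraries, against 21.9, 23.5, 21.9, 23.6 and 24.6 CPM in euhydrated libraries. Dehydrated 5 was the lowest and euhydrated 5 the highest, with the remaining libraries between 21.4 and 23.6 CPM. The log2 fold change was -0.11 ± 0.05 (SE, edgeR adjusted p = 0.229; 95% interval of the fold change 0.858 to 1.01).

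None of these 6 tested receptors passed edgeR's threshold, and none had an unadjusted p under 0.05. DESeq2 and limma-voom called 0 of the 6 as well. Their log2 fold changes were all below 0, with a median of -0.13 against -0.0058 over all genes tested, and 12.7% of all genes were called. With intervals this wide, falls of Gipr to a fold of 0.655, of Pth2r to 0.713 and of Vipr2 to 0.714 are not excluded.

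**Figure D2:**
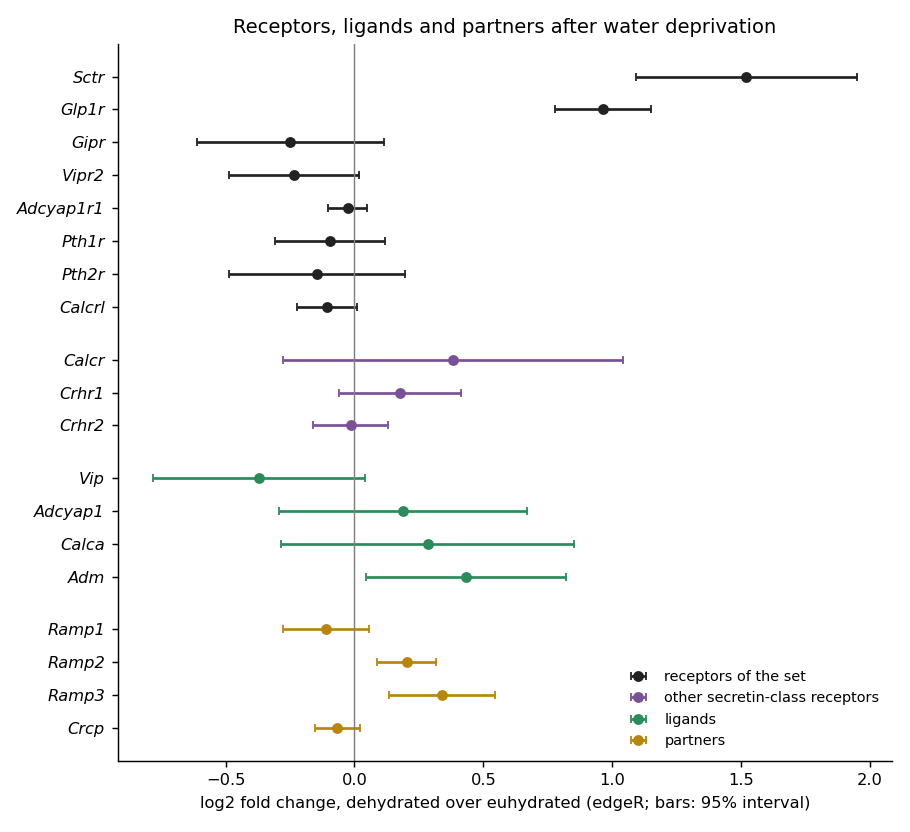
Log2 fold change of dehydrated over euhydrated libraries (horizontal axis) for every tested receptor, ligand and partner gene, with 95% intervals from edgeR. Sctr at 1.52 and Glp1r at 0.96 lie apart on the right, while the intervals of the other receptors include 0 and those of Ramp2, Ramp3 and Adm lie above it.

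The spread between libraries was compared with the spread that counting alone would give, 1 over the square root of the mean count. Sctr stood out for the difference between its groups, with a coefficient of variation of 6.66% in dehydrated and 34.8% in euhydrated libraries, where counting alone gives 10.4% and 17.0%. In the dehydrated libraries Sctr was thus the only tested receptor of the 8 whose spread lay below that of counting. Glp1r varied by 11.6% in dehydrated and 10.4% in euhydrated libraries, with 4.21% and 5.68% from counting. Adcyap1r1 varied least among the tested receptors in both groups, by 4.12% in dehydrated and 4.19% in euhydrated libraries, though counting gives under 1% for it. For Adcyap1r1 the spread between libraries was thus several times that of counting.

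**Figure D3:**
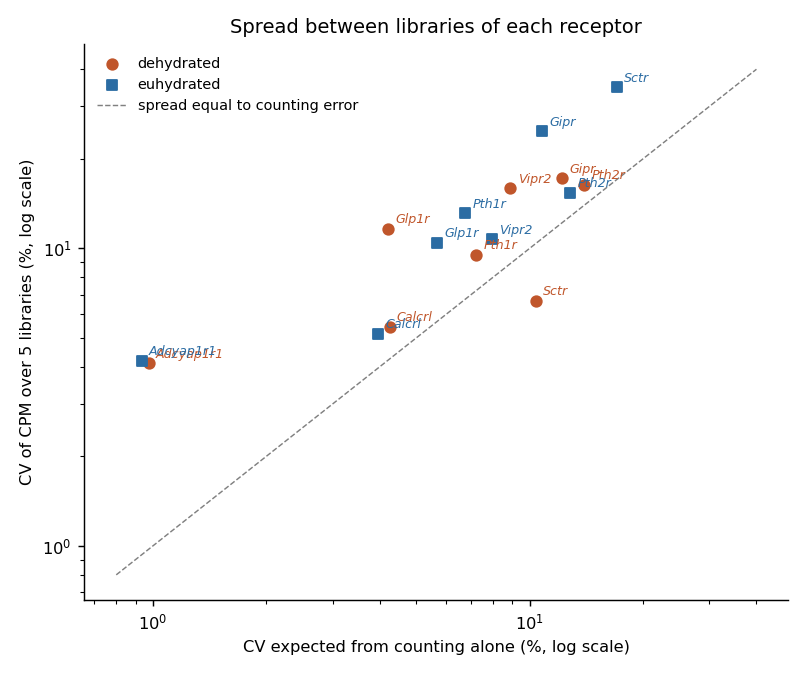
Coefficient of variation of CPM over the 5 libraries of a group (vertical, log scale) against that expected from counting alone (horizontal, log scale) for the 8 tested receptors; the dashed line marks equality. Sctr in dehydrated libraries (6.66%) is the 1 point below the line, and Sctr in euhydrated libraries (34.8%) is the highest point.

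The genes whose level ran most closely alongside each of the rising receptors were sought among 13053 named genes with a mean of at least 1 CPM. Over the 10 libraries, Sctr was matched best by Bcl2l1, for an inhibitor of apoptosis (Pearson r = 0.971), Ivns1abp (0.968) and Sfrp4, for a secreted Wnt-binding protein (0.967). Bcl2l1 was at 98.2 CPM in dehydrated and 80.5 CPM in euhydrated libraries, a far smaller difference than that of Sctr. Glp1r was matched best by Serinc3 (0.984), by Rxfp3, the receptor of relaxin-3 (0.982), and by Cckbr, the brain cholecystokinin receptor (0.979). Rxfp3 was at 45.5 CPM in dehydrated and 19.3 CPM in euhydrated libraries, and Cckbr was at 27.3 CPM in dehydrated and 9.56 CPM in euhydrated libraries. The 2 groups lie apart in all of these genes, which by itself raises r. With the group means taken away, r was 0.833, 0.816 and 0.867 for the genes beside Sctr and 0.805, 0.783 and 0.706 for those beside Glp1r. The genes were picked as those with the largest r of 13053 over the 10 libraries, before the group means were taken away. That pick also favours a high r of the deviations, so the values without the group means are no separate support. The r values without the group means were not ranked, and all of these values describe these libraries only.

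**Figure D4:**
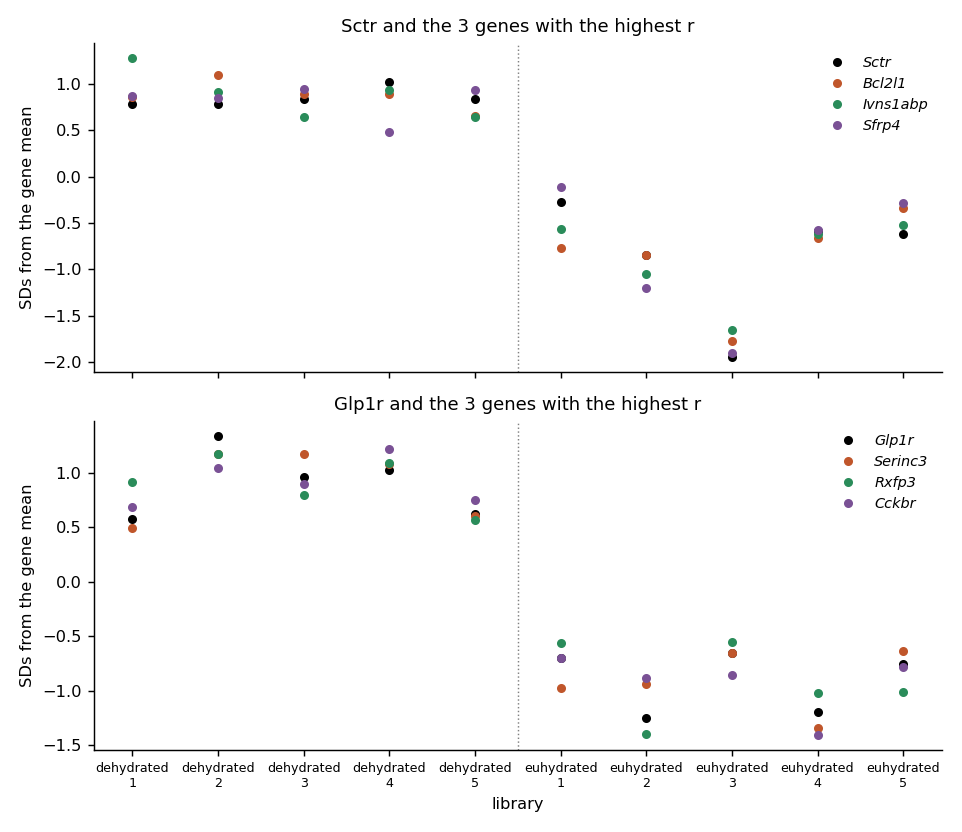
Level of Sctr (top) and Glp1r (bottom) and of the 3 genes with the highest Pearson r to each, in each library, as the number of SDs from the mean of that gene's log2 CPM. Dehydrated libraries (left of the dotted line) lie above 0 and euhydrated libraries below it, and euhydrated 3 is the lowest library for Sctr and for all 3 genes beside it.

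The transcripts of the peptides that these receptors bind mostly had few reads. Of 12 ligand genes 11 were found and 4 were tested. Of the 4, 0 passed edgeR's threshold, against 12.7% of all genes, so that a count of 0 is near the background. There was 1 at an unadjusted p under 0.05, limma-voom called 0, and DESeq2 called 0 of the 3 to which it gave an adjusted p, Calca having none. Sct, for secretin, had 20 reads in the 5 dehydrated and 12 reads in the 5 euhydrated libraries, and Gcg, the precursor of the glucagon-like peptides, had 4 reads in dehydrated and 1 in euhydrated libraries. Gip and Pth were listed at 0 in every library, where a count of 0 allows a level of up to 0.105 to 0.126 CPM. Pth2 had 0 reads in dehydrated and 2 in euhydrated libraries, Adm2 had 4 in dehydrated and 2 in euhydrated libraries, and Calcb had 21 in dehydrated and 42 in euhydrated libraries. Pthlh was not analysed here. The ligands of Sctr and of Glp1r thus had too few reads in these punches for a comparison.

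Among the ligand genes that were tested, Adcyap1, for PACAP, stood at 29.5, 18.5, 39.95, 31.7 and 40.1 CPM in dehydrated libraries, against 32.6, 28.02, 25.9, 31.7 and 22.1 CPM in euhydrated libraries. The dehydrated libraries held both the lowest and the highest values (log2 fold change 0.19 ± 0.21, SE; edgeR adjusted p = 0.640). Vip averaged 2.55 ± 0.540 CPM in dehydrated and 3.32 ± 0.906 CPM in euhydrated libraries (SD, n = 5 each; log2 fold change -0.37 ± 0.19, SE, edgeR adjusted p = 0.240). Calca, for calcitonin and CGRP, averaged 0.829 CPM in dehydrated and 0.681 CPM in euhydrated libraries (edgeR adjusted p = 0.546). Adm, for adrenomedullin, stood at 3.86, 3.50, 3.47, 3.41 and 4.20 CPM in dehydrated libraries, against 2.86, 1.47, 3.70, 3.08 and 2.57 CPM in euhydrated libraries. All but 1 of the euhydrated libraries lay below every dehydrated one, and the log2 fold change of 0.43 ± 0.18 (SE) missed the threshold (edgeR adjusted p = 0.143, unadjusted p = 0.0314).

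Of the 4 partner genes, the RAMPs and Crcp, 2 rose by edgeR, Ramp2 and Ramp3, where 7.79% of all genes rose. Ramp1 and Crcp did not pass the threshold. The groups overlapped in each of the 4, and the difference between partners was not tested. Ramp2, which with Calcrl forms an adrenomedullin receptor, rose 1.15-fold, with 37.5, 39.7, 42.0, 41.9 and 41.7 CPM in dehydrated libraries against 35.8, 35.1, 31.2, 38.6 and 35.6 CPM in euhydrated libraries (edgeR adjusted p = 0.0219). The groups overlapped through dehydrated 1 and euhydrated 4. Ramp3, the partner in the other adrenomedullin receptor, rose 1.26-fold, with 7.43, 7.12, 8.72, 6.58 and 7.12 CPM in dehydrated libraries against 5.2, 5.98, 5.44, 6.05 and 6.59 CPM in euhydrated libraries (edgeR adjusted p = 0.0308). Dehydrated 4 lay just below euhydrated 5, and the other 4 dehydrated libraries lay above the whole euhydrated group. Ramp1, the partner in the CGRP receptor, averaged 20.05 ± 2.10 CPM in dehydrated and 21.6 ± 2.14 CPM in euhydrated libraries (SD, n = 5 each); on the log2 scale they differed by -0.11 ± 0.08 (SE, edgeR adjusted p = 0.405). Crcp, for an intracellular component of the CGRP receptor, differed by -0.07 ± 0.04 on the log2 scale (SE, edgeR adjusted p = 0.327).

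Both RAMP calls were lost without single libraries, though the fold changes moved little. Ramp2 lost its call without dehydrated 3 (log2 fold change 0.19, edgeR adjusted p = 0.0572) or dehydrated 5 (0.19, 0.0501), against 0.20 with all libraries. Its adjusted p spanned 0.00913 (DESeq2) to 0.0572 (edgeR) across the settings tried. Ramp3 lost its call without dehydrated 1 or 3 or euhydrated 1, 2 or 3, at edgeR adjusted p of 0.0509 to 0.0889. Its log2 fold changes there were 0.27 to 0.35, against 0.34 with all libraries. Across the settings tried, the adjusted p of Ramp3 spanned 0.0181 (DESeq2) to 0.0889 (edgeR). Calcrl and Ramp2 are abundant in endothelium, so its markers were summed. The 10 of 12 endothelial markers matched, none at 0 in all libraries, summed to 573 to 657 CPM in dehydrated and 568 to 598 CPM in euhydrated libraries, and 2 of the 10 rose, where 7.79% of all genes rose: Kdr (log2 fold change 0.23, edgeR adjusted p = 0.0117) and Slc2a1 (0.30, edgeR adjusted p = 0.000378). Only dehydrated 5 lay within the euhydrated range of the endothelial sum, and the other dehydrated libraries lay above it, at 599 CPM or more. By edgeR 5 of the 10 had an unadjusted p under 0.05, 4 of them higher, and 3 of the 10 had a log2 fold change below 0. The 8 mural cell markers summed to 731 to 1050 CPM in dehydrated and 703 to 925 CPM in euhydrated libraries. Of the 8, 1 was called higher, Cspg4, and 0 had a log2 fold change below 0 (median 0.15, against -0.0058 over all genes). The part of blood vessels in the RAMP values was not tested.

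**Figure D5:**
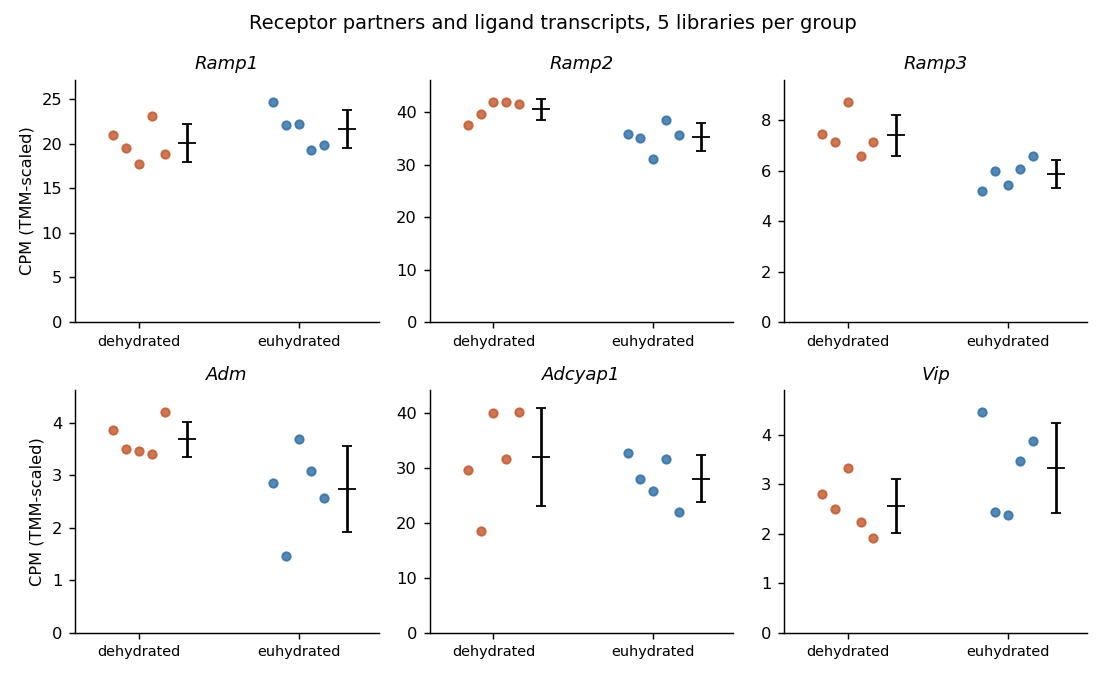
Level of the 3 RAMP partner transcripts and of 3 ligand transcripts in CPM, with 1 point per library (dehydrated left, euhydrated right) and the mean ± SD beside the points; every axis starts at 0. Ramp2 and Ramp3 are shifted upward in dehydrated libraries with some overlap, Ramp1 is not, and Adcyap1 spans 18.5 to 40.1 CPM in dehydrated libraries.

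The other secretin-class receptor genes, for calcitonin, CRH, GHRH and glucagon, gave 0 calls by edgeR among 3 tested of 5, with 0 at an unadjusted p under 0.05 and 0 called by DESeq2 or limma-voom; 12.7% of all genes were called, so that 0 of 3 is near the background. Calcr, the calcitonin receptor, varied most, with 44.6, 40.4, 56.5, 37.3 and 77.5 CPM in dehydrated libraries against 22.8, 56.9, 45.7, 33.2 and 37.8 CPM in euhydrated libraries. Its coefficient of variation was 31.9% in dehydrated and 32.8% in euhydrated libraries, where counting gives 2.75% and 3.03%, so its log2 fold change of 0.38 has an interval of -0.28 to 1.04 (edgeR adjusted p = 0.455). Crhr1 and Crhr2, the receptors of CRH and the urocortins, did not pass either, at 0.18 ± 0.11 for Crhr1 (edgeR adjusted p = 0.344) and -0.01 ± 0.07 for Crhr2 (0.925), as log2 fold changes with SE. Ghrhr had 9 reads in dehydrated and 6 in euhydrated libraries.

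Downstream of the receptors, 4 of 21 genes of Gs and the cyclic AMP core rose, 0 fell and 17 did not pass the threshold, against 7.79% of all genes that rose. The median log2 fold change of the 21 was 0.055, against -0.0058 over all genes. There were 7 of the 21 at an unadjusted p under 0.05, 4 of them higher and the rest lower in dehydrated libraries. DESeq2 called 5 and limma-voom 4 of the 21. Adcy1, for another calcium-stimulated adenylyl cyclase, was the gene that DESeq2 added, and it is named after its values were seen. It stood at 25.7, 26.6, 20.3, 25.8 and 18.0 CPM in dehydrated libraries against 26.8, 30.0, 30.4, 28.8 and 26.7 CPM in euhydrated libraries, without overlap. Its log2 fold change of -0.30 ± 0.10 (SE) was larger in size than that of any gene of the list that rose, yet missed the threshold by edgeR (adjusted p = 0.0729) and limma-voom (0.0554) and passed it by DESeq2 (0.0216). With edgeR it passed when scaling to library totals (0.0460), with the block by column number (0.0373) and without dehydrated 2 (0.0455). Rapgef4 passed as lower with the block by column number (log2 fold change -0.16, edgeR adjusted p = 0.0303). Adcy2 passed as lower without euhydrated 2 (-0.12, edgeR adjusted p = 0.0406). The 4 that rose were Prkar2a and Prkar1a, regulatory subunits of protein kinase A, Adcy8, a calcium-stimulated adenylyl cyclase, and Gnas, for the Gs alpha subunit. Prkar2a stood at 74.9, 72.3, 72.1, 69.1 and 65.6 CPM in dehydrated libraries against 57.6, 59.6, 61.1, 59.2 and 62.5 CPM in euhydrated libraries (log2 fold change 0.24 ± 0.04, SE; edgeR adjusted p = 0.00107). Prkar1a averaged 449 ± 10.5 CPM in dehydrated and 400 ± 8.32 CPM in euhydrated libraries (SD, n = 5 each; log2 fold change 0.17 ± 0.03, SE, edgeR adjusted p = 0.000636). The groups did not overlap in either gene.

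Gnas averaged 1497 ± 53.6 CPM in dehydrated and 1349 ± 34.1 CPM in euhydrated libraries (SD, n = 5 each; log2 fold change 0.15 ± 0.03, SE, edgeR adjusted p = 0.00471). A second identifier carries the same name with 2993 to 5299 reads per library, and the values are those of the more abundant one. Any reads shared between them would make this gene uncertain, and whether reads were shared was not tested. Adcy8 stood at 47.2 to 50.04 CPM in dehydrated and 39.3 to 46.8 CPM in euhydrated libraries (log2 fold change 0.16 ± 0.05, SE; edgeR adjusted p = 0.0336). That call was lost when scaling to library totals (edgeR adjusted p = 0.0814) and without any 1 of 7 libraries (0.0527 to 0.0806). The exceptions were dehydrated 4 and euhydrated 3 and 5. Across the settings tried, the adjusted p of Adcy8 spanned 0.0182 (DESeq2) to 0.0814 (edgeR). The catalytic subunit genes Prkaca and Prkacb had log2 fold changes of -0.02 (edgeR adjusted p = 0.684) and -0.03 (0.556). Of 7 genes for receptor kinases and arrestins, which switch these receptors off, 0 passed edgeR's threshold, against 12.7% of all genes, with 1 at an unadjusted p under 0.05 and 0 called by DESeq2 or limma-voom. That gene, Grk3, named after its values were seen, passed only when scaling to library totals (edgeR adjusted p = 0.0377, against 0.0764 with TMM). The median log2 fold change of the 7 was 0.0012.

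Markers of other cell types that punches can take up were summed for the same libraries. Astrocyte markers summed to 5895 to 7004 CPM in dehydrated and 5930 to 7094 CPM in euhydrated libraries, and microglial markers to 259 to 295 CPM in dehydrated and 272 to 309 CPM in euhydrated libraries. Oligodendrocyte markers summed to 9499 to 12141 CPM in dehydrated and 9903 to 14415 CPM in euhydrated libraries (1 of 8 lower), and erythrocyte markers to 257 to 631 CPM in dehydrated and 441 to 930 CPM in euhydrated libraries (1 of 6 lower, where 4.9% of all genes fell). Of the 6 erythrocyte marker names, Hbb-b1 and Hbb-bs had identical values in every test. They stand for 1 row, which enters the sums, the median and the count of 6 under both names. All 6 names had a log2 fold change below 0, with a median of -0.71. The 1 that fell, Slc4a1, passed by edgeR (adjusted p = 0.0291) but not by limma-voom (0.0627), while DESeq2 gave it no adjusted p. Leptomeningeal markers summed to 839 to 1053 CPM in dehydrated and 820 to 990 CPM in euhydrated libraries, choroid plexus markers to 13.2 to 22.7 CPM in dehydrated and 12.2 to 31.9 CPM in euhydrated libraries (1 of 5 tested lower), and markers of cortical and amygdalar neurones to 34.6 to 87.8 CPM in dehydrated and 35.8 to 116 CPM in euhydrated libraries. Col1a2 of the leptomeningeal and Otx2 of the choroid list were at 0 in every library. By edgeR 0 of 8 microglial markers passed the threshold, but 4 had an unadjusted p under 0.05, 0 of them higher. For the leptomeningeal markers this was 0 of 6 tested and 2, both higher. DESeq2 called 1 of the 8 microglial, 1 of the 6 leptomeningeal and 2 of the 5 choroid plexus markers, and 2251 of all 15311 genes. The ranges of each of these lists overlapped between the groups, and their part in the receptor values was not tested.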

How the data were processed

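Polyadenylated RNA of 10 supraoptic nucleus samples was sequenced from stranded libraries, per the labels' protocols. Raw counts of reads for each Ensembl gene were deposited, without scaling. A second deposited table holds the authors' comparison, per the file headers: log2 fold changes with SE, p-values, the Wald score, and the signal of normalised counts. The submitters' processing notes name CASAVA, FastQC, STAR, featureCounts and DESeq2 1.28.1; genome build, annotation and strand setting: not given in the sources used here. Overlapping or antisense genes are therefore uncertain. CPM is not compared between genes of differing length, since transcript lengths were not used here.

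Columns were tied to samples by name. Euhydrated columns 3 to 5 were tied to the group alone, because the labels number them in 2 ways, and libraries are named by column number. No 2 libraries of a group were alike within counting noise, with a chi-square of 5.05 to 12.7 for each degree of freedom.

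Genes were kept by filterByExpr, scaled by TMM factors and tested with edgeR 4.0.16 (glmQLFit and glmQLFTest, robust, R 4.3.3) without covariates, with Benjamini-Hochberg adjustment over 15311 genes. Log2 CPM used a prior count of 2. Alternatives were DESeq2 1.42.0, limma-voom (limma 3.58.1), other scalings and low-count filters, replicate blocks and leaving out each library; the block by column number was added after the data were seen. The receptors, gene lists and tests were chosen with earlier results of these data known. Named genes were all receptors, ligands and partners, list genes past the threshold with the largest changes (up to 4 a list), and the 3 genes most correlated with Sctr and with Glp1r. Prok2, Kdr, Slc2a1, Cspg4, Slc4a1, Hbb-b1, Hbb-bs, Adcy1, Adcy2, Rapgef4, Grk3, Prkaca and Prkacb were named after their values were seen.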

Additional observations from a re-analysis of the deposited data

Results flagged for a closer look

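Among 38 sets of 5 libraries (each tested receptor, ligand and partner gene in each group), 3 held a library that stood apart from the other 4 by Dixon's criterion, which flags about 5% of sets by chance. Sctr in dehydrated 4, at 4.0 CPM, lay above the other dehydrated libraries at 3.42 to 3.56 CPM. Without that library the log2 fold change was 1.48 ± 0.22 (SE) against 1.52 ± 0.20 with it. In raw counts dehydrated 4 had 95 reads, within the 88 to 96 of its group. The spread of that group, 6.66%, was below the 10.4% that counting alone gives. Gipr in euhydrated 4, at 4.41 CPM, lay above the other euhydrated libraries at 2.39 to 2.96 CPM, and without it the log2 fold change was -0.09 against -0.25 with it. Pth2r in euhydrated 3, at 1.60 CPM, lay below the other euhydrated libraries at 2.35 to 2.4 CPM, and without it the log2 fold change was -0.24 against -0.15 with it.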

How the results depend on the processing

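None of the 6 receptors other than Sctr and Glp1r passed the threshold under any of the 19 alternatives run; Sctr and Glp1r made the count of 2 each time, which the choice of the family fixes and which is no sign of stability. Leaving out each library in turn gave 1494 to 1756 genes in all, and 3 to 6 of the genes of the other lists, against 6 with all libraries; the 3 came without dehydrated 3. Scaling to library totals turned the split of all calls from 1192 higher and 750 lower to 904 higher and 1173 lower and moved the median log2 fold change from -0.0058 to -0.033. Crhr2, at -0.01 with all libraries, changed sign without dehydrated 2 (0.024), dehydrated 4 (0.0017) or euhydrated 4 (0.032), in a range of -0.051 to 0.032; the cause was not tested. No other receptor, ligand or partner gene and none of the 4 named cyclic AMP genes changed sign; the genes named for likeness and the markers were not rerun. Calca gave no value with the filter of 1 CPM, and DESeq2 gave it an unadjusted p of 0.369 but no adjusted p. Replicate numbers did not pair the libraries: deviations of same-numbered libraries correlated at -0.07 and 0.16 for the numbers 1 and 2 tied by the labels and at 0.01, 0.03 and -0.02 for columns 3 to 5, and 1 dehydrated and 1 euhydrated library correlated best with its own number. With the block, 1861 genes passed for numbers 1 and 2 and 1956 for all column numbers. The column block ended the call of Ramp3 (edgeR adjusted p = 0.0571). Over the alternatives the adjusted p of Ramp3 ranged from 0.0181 (DESeq2) to 0.0889 (edgeR). Depth limits Sctr, with as few as 16 reads in a library, and leaves Glp2r, Sct and Gcg without a test.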
